A study of Homo sapiens with 4 samples.

Results

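The genes described here form the hypoxia axis of the transcriptome of HK-2 cells, a human kidney proximal tubule line immortalised with papillomavirus oncogenes. They are 2 hypoxia-inducible factor (HIF) subunit genes (HIF1A and EPAS1), the regulators CITED2, EGLN1 and EGLN3, and 5 genes known as hypoxia targets (BNIP3, BNIP3L, ADM, NDRG1 and DDIT4). The 10 were picked by name from 25609 genes in a table of RPKM, once identifiers had been paired with symbols. RPKM is here the read density per kilobase of a gene's merged annotated exons, adjusted for library size. The list was drawn up when the TGF-β1 contrast of these libraries was already known, CITED2 and BNIP3 included, so the differences below describe the genes and are not independent evidence about them. Total RNA was sequenced from 4 samples of wild-type HK-2 cells, 2 labelled control and 2 labelled TGFbeta1 (transforming growth factor β1, TGF-β1, a cytokine that drives matrix production in tubular cells). Per the labels, cells went 24 h without serum and then had TGF-β1 at 20 ng/mL for 24 h, with the uridine analogue 4-thiouridine at 100 μM in the last 20 h. The same text stands under every sample, so it is assumed here that controls differed only in lacking TGF-β1. No sample was labelled as hypoxic, and no source used here gives the oxygen level of the cultures. HK-2 is a single established line, and the labels do not say that replicates came from separate cultures, so intervals and p-values reflect library-to-library spread that may be purely technical.

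HIF transcription factors are heterodimers of an oxygen-regulated α subunit, such as HIF1A or EPAS1 (HIF-2α), and the constitutive partner ARNT. With oxygen, the prolyl hydroxylases of the EGLN family mark the α subunit for capture by VHL and destruction, and the asparaginyl hydroxylase HIF1AN keeps it from the coactivators CBP and p300. Without oxygen the α subunit escapes, enters the nucleus and switches on genes of glycolysis, mitophagy, angiogenesis and its own feedback, including EGLN3 and CITED2. Since this control acts mainly on protein, the level of an α subunit mRNA does not by itself tell the activity of the factor. In the kidney, HIF1A is known from tubular epithelium and EPAS1 from interstitial and endothelial cells.

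HIF recognises a short core motif in DNA, and promoters are shown here for 3 genes: CITED2 and BNIP3, which had the largest differences, and DDIT4, which differed in the opposite direction. Each sequence is the 250 bases before the most upstream RefSeq start site (build GRCh38.p14), read 5′ to 3′ on the gene's strand. Capitals mark every match to the core motif, ACGTG or GCGTG, on either strand, where CACGT and CACGC are the same words on the other strand. The CITED2 window lies at chr6:139374649-139374898 (minus strand), that of BNIP3 at chr10:131981924-131982173 (minus strand) and that of DDIT4 at chr10:72273674-72273923 (plus strand).
CITED2: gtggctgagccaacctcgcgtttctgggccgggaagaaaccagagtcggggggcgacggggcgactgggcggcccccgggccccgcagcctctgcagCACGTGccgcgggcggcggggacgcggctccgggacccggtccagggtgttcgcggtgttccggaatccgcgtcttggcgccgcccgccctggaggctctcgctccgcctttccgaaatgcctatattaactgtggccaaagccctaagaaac
BNIP3: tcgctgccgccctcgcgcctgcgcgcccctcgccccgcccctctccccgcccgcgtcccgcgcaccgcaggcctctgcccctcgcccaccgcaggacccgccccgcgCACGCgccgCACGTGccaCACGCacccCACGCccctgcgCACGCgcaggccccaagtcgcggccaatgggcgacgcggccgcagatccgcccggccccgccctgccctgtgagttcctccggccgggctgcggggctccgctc
DDIT4: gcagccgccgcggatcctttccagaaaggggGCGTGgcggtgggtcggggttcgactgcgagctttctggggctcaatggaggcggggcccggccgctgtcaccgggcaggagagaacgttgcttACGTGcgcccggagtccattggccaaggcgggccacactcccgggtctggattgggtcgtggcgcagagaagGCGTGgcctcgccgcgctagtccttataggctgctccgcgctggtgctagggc
CITED2 and BNIP3 each held CACGTG, a palindrome in which ACGTG reads on both strands and which is also the E-box bound by factors such as MYC and USF. It began 153 bases before the start site in CITED2 and 134 bases before it in BNIP3. The BNIP3 window added 4 matches to GCGTG around the palindrome, all on the other strand and all between 143 and 100 bases before the start. DDIT4 held ACGTG once and GCGTG at 2 places, without the palindrome. Windows were found for 8 of the 10 genes. Of these, 4 held ACGTG, 5 held GCGTG, 7 held either and 2 held CACGTG. Among the 27305 genes with a window, 18.6% held ACGTG, 31.9% GCGTG, 43.1% either and 6.46% CACGTG, and 0.648% had at least as many matches as the 6 of BNIP3, counting both strands. The windows of the 10126 genes with a window that could be tested for expression were richer in GC (median 64.8%, against 57.6% in all windows). Of them, 23.9% held ACGTG, 45.5% GCGTG, 57.7% either and 9.20% CACGTG. The share with at least as many matches as BNIP3 was not computed for these genes alone. The GC content of the windows shown was 70.0% in CITED2, 81.6% in BNIP3 and 68.8% in DDIT4. A match describes these letters and is not evidence of binding, and the EGLN3 window held none.

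**Figure D1:**
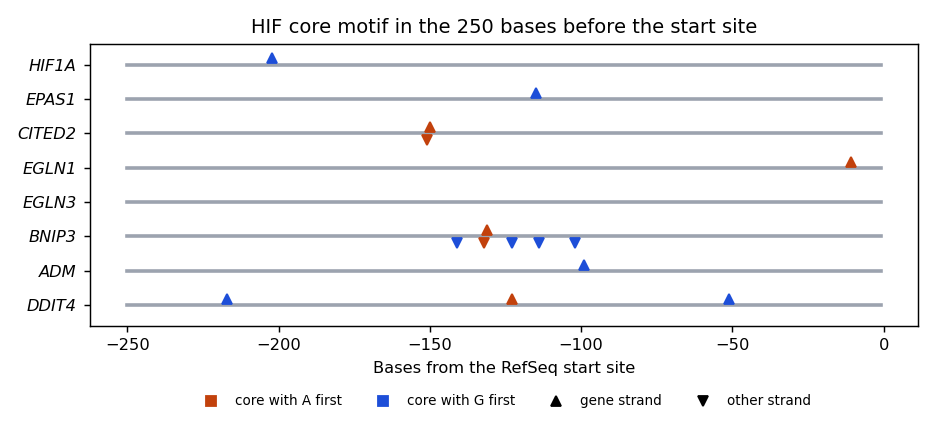
Matches to the HIF core motif in the 250 bases before the RefSeq start site of 8 genes. The x axis is the distance from the start site in bases, each grey line is a window, triangles pointing up are matches on the gene's strand and triangles pointing down on the other strand, and colour separates the words that begin with A and with G. The 6 matches of BNIP3 cluster between 143 and 100 bases before the start, and EGLN3 has none.

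The libraries were shallow. Read counts recovered from the RPKM values summed to 3337059 and 4802151 in the controls and to 4639276 and 5452258 with TGF-β1. Of 25609 genes, 16590 had a mean of at least 0.5 RPKM over the 4 libraries and were tested with limma on log2(RPKM + 0.5). A gene is called higher or lower where its p-value, adjusted over all these genes by the Benjamini-Hochberg method, is below 0.05, and this held for 1015 higher and 498 lower genes. That split depends on scaling, with 655 higher and 883 lower genes under scaling to each library's sum of recovered reads, which moved the median difference of all genes by -0.15 on the log2 scale, and 702 higher and 692 lower after quantile normalisation. Of 13 proximal tubule markers in the table, 6 passed the expression filter, among them PAX8 and GGT1 with means of 43.5 and 20.0 RPKM in controls. The other 7 (CUBN, SLC34A1, SLC5A2, AQP1, ANPEP, MME and PAX2) lay below it, on at most 16 reads in any library. Markers of other cell types were near 0: the 4 endothelial genes measured summed to between 0.0730 and 0.218 RPKM per library, with CDH5, VWF and CLDN5 at 0 reads throughout. The immune genes without CSF1R summed to between 0.233 and 0.618 RPKM, and the fibroblast genes without LUM to between 0.138 and 0.353 RPKM. CSF1R rose from 2.07 ± 0.032 to 10.3 ± 0.33 RPKM, and LUM measured 12.5 ± 0.57 RPKM in the control libraries and 7.75 ± 1.4 RPKM after TGF-β1 and was not called. Of the 6 tubular markers tested, PAX8 and DPP4 fell (to 15.1 and 7.74 RPKM from 43.5 and 13.9) and the keratins KRT8 and KRT18 rose, and the part of such a shift in the differences below was not tested.

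Of the 10 genes, 9 passed the expression filter, 6 were called lower, 1 was called higher and 2 were not called, beside 9.12% of all tested genes called in either direction, 3% lower and 6.12% higher. Because the genes were chosen with this comparison in view, nothing is read from that count. In 8 of the 9 the libraries of the groups did not overlap, against 54.1% of all tested genes, and in 7 both TGF-β1 libraries lay below both controls, against 24.6%. Differences are given below on the log2(RPKM + 0.5) scale with a 95% confidence interval from the fit across all genes, a scale that shrinks the difference of genes with low levels. The set spanned a wide range of levels. In controls CITED2 was the most abundant per length (119 RPKM) and EGLN3 the least (0.503 RPKM), and with TGF-β1 the order was led by DDIT4 (38.4 RPKM), HIF1A (32.2 RPKM) and CITED2 (22.8 RPKM), whose libraries did not overlap.

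**Figure D2:**
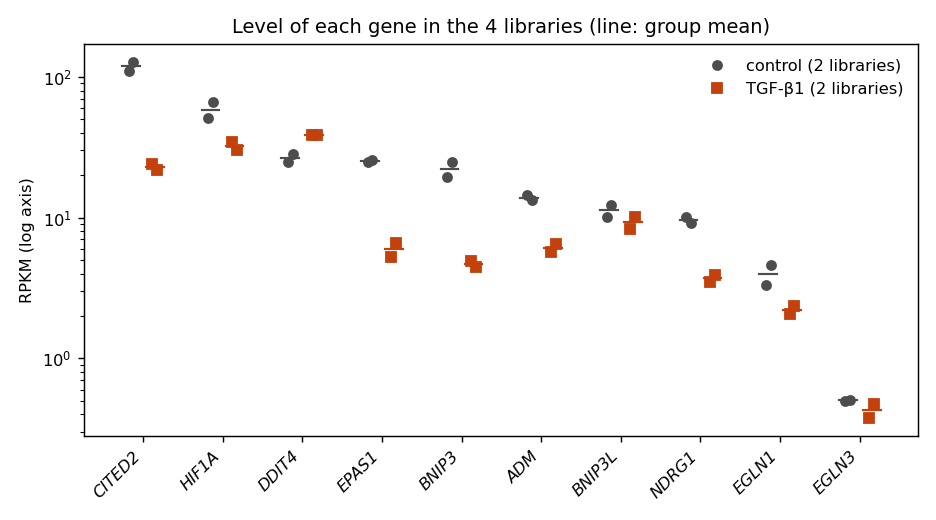
Level of each of the 10 genes in every library, in RPKM on a log axis, ordered by the control mean. Grey circles are the 2 control libraries, orange squares the 2 TGF-β1 libraries and short lines group means. The groups are apart for every gene except BNIP3L, and DDIT4 is the only gene with both TGF-β1 libraries above the controls.

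Both α subunit genes were lower with TGF-β1, EPAS1 by more than HIF1A. EPAS1 (chromosome 2, 46293667 to 46386703) measured 24.8 and 25.5 RPKM in control replicates 1 and 2 and 5.29 and 6.65 RPKM in TGF-β1 replicates 1 and 2, on 613, 874, 160 and 228 reads. The controls differed by a factor of only 1.03 and the TGF-β1 libraries by a factor of 1.26, and the groups were far apart. The group means were 25.1 ± 0.50 and 5.97 ± 0.96 RPKM (SD, n = 2 each), a level 4.21-fold lower with TGF-β1. The log2 difference was -1.99 (95% confidence interval -2.32 to -1.67), and only 14 of the 16590 tested genes had a lower one. A fall in a bulk sample cannot be told apart between fewer cells that carry a transcript and less of it per cell.

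HIF1A (chromosome 14, 61695513 to 61748259) measured 50.8 and 66.1 RPKM in the control libraries and 34.3 and 30.2 RPKM after TGF-β1, on 887, 1601, 734 and 731 reads. The groups did not overlap, but the controls differed from each other by a factor of 1.30, so the spread took up more of the difference than for EPAS1. The log2 difference was -0.84 (95% confidence interval -1.21 to -0.47), a level 1.81-fold lower. The call for HIF1A was lost without TGF-β1 replicate 2 (log2 difference -0.75), without the variance trend and without the expression filter. Set against each other within each library, HIF1A stood at 2.05 and 2.60 times the level of EPAS1 in controls and at 6.49 and 4.54 times with TGF-β1. The antisense genes HIF1A-AS1 and HIF1A-AS3 overlap HIF1A and had at most 5 and 16 reads in a library. No source used here says whether counting used strand, and these reads cannot be told from those of HIF1A with certainty.

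Of the partner genes, ARNT was not called and BMAL1 rose. ARNT, the constitutive β subunit, measured 4.05 ± 0.26 RPKM in the control libraries and 4.89 ± 0.99 RPKM after TGF-β1 (log2 difference 0.23, 95% confidence interval -0.22 to 0.69, adjusted p = 0.492, limma). BMAL1, an ARNT-like protein best known as a clock factor, rose from 0.763 ± 0.24 to 3.32 ± 0.47 RPKM (log2 difference 1.60, adjusted p = 0.0230, limma), on 13 and 29 reads in controls against 83 and 115. The BMAL1 call was lost without TGF-β1 replicate 1 (1.73) or 2 (1.48), without the variance trend and without the expression filter. ARNT2 had at most 3 reads in a library and was not tested, and HIF3A was not analysed here.

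Of the oxygen sensors, EGLN1 and EGLN3 showed no called difference. EGLN1 (chromosome 1, 231363751 to 231425044), the main prolyl hydroxylase that sets HIF levels in normal oxygen, measured 3.31 and 4.64 RPKM in the control libraries and 2.07 and 2.35 RPKM after TGF-β1, on 81, 158, 62 and 80 reads. Both TGF-β1 libraries lay below both controls (log2 difference -0.71, 95% confidence interval -1.25 to -0.17), but the controls differed by a factor of 1.40 and the interval was wide. The interval is not adjusted for the number of genes tested, whereas the call is, and the adjusted p of EGLN1 was not below 0.05. EGLN1 was called lower under 1 of 15 alternatives, limma's voom on the recovered reads. EGLN3 (chromosome 14, 33924231 to 34462774), a prolyl hydroxylase that is itself a strong hypoxia target in many cells, rested on 12, 17, 11 and 16 reads in the same order of libraries, or 0.501 and 0.506 against 0.376 and 0.476 RPKM. Its mean lay below the filter, so it was not tested, and the fit without a filter gave a log2 difference of -0.12 (95% confidence interval -0.63 to 0.39). SPTSSA, a protein-coding gene on the same strand, overlaps EGLN3 and had 61, 109, 79 and 89 reads, and how reads in the overlap were assigned is not given by any source used here.

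Of the 8 other genes in this group 1 was called higher and none lower, or 12.5% beside 9.12% of all tested genes. This was ELOB, the elongin B adaptor of the ligase, which rose from 153 ± 4.4 to 261 ± 23 RPKM (log2 difference 0.77, adjusted p = 0.00884, limma). The ELOB call was lost only without the variance trend. EGLN2, the third prolyl hydroxylase, was at 2.92 ± 0.22 RPKM in the control libraries and 3.80 ± 0.24 RPKM after TGF-β1 and was not called (adjusted p = 0.279, limma). Its level relative to EGLN1 was 0.928 and 0.596 in controls and 1.92 and 1.54 with TGF-β1. The ratio near 1 in control replicate 1 rested on 68 EGLN2 and 81 EGLN1 reads. Neither gene was called, so no change in the order of the pair is read from these ratios. VHL itself (15.8 ± 0.71 and 16.9 ± 0.020 RPKM) and HIF1AN (7.43 ± 0.92 and 8.12 ± 0.41 RPKM) had log2 differences of 0.10 and 0.12, which turned to -0.075 and -0.046 with scaling by total recovered reads. P4HTM, a transmembrane prolyl hydroxylase, CUL2, the scaffold of the ligase, ELOC, the elongin C adaptor, and RBX1, its RING subunit, differed by -0.59, -0.22, 0.27 and 0.39 and were not called. With voom on the recovered reads P4HTM was called lower (-0.78, adjusted p = 0.0123) and ELOC and RBX1 higher (0.27 and 0.39, adjusted p = 0.0351 and 0.0214, limma).

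CITED2 had the largest difference of the set. It encodes a CBP/p300-binding protein that is induced by HIF and competes with it for the coactivator, and it is known also as a partner of SMAD and TFAP2 factors. CITED2 (chromosome 6, 139371807 to 139374620) measured 110 and 128 RPKM in the control libraries and 24.0 and 21.7 RPKM after TGF-β1, on 946, 1525, 252 and 258 reads. Both TGF-β1 libraries lay far below both controls, and the spread within each group was small beside the gap. The means were 119 ± 13 and 22.8 ± 1.6 RPKM (SD, n = 2 each), a level 5.22-fold lower. Its log2 difference was -2.36 (95% confidence interval -2.61 to -2.10), and 2 tested genes had a lower one. CITED2 transcripts have no 50-base word shared with the transcripts of another gene.

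The coactivators that CITED2 binds had no called difference. CREBBP (CBP) measured 14.5 ± 0.97 RPKM in the control libraries and 15.4 ± 1.0 RPKM after TGF-β1, and EP300 (p300) 9.26 ± 0.60 and 9.98 ± 0.95 RPKM. Their log2 differences were 0.08 (95% confidence interval -0.17 to 0.33) and 0.10 (-0.20 to 0.40), and turned to -0.094 and -0.072 with scaling by total recovered reads. The level of CITED2 relative to EP300 in the same library was 11.4 and 14.5 in controls and 2.58 and 2.03 with TGF-β1. Its relative CITED4 had 14 reads or fewer in each library (log2 difference 0.54, 95% confidence interval -0.16 to 1.24, not called), and CITED1 had at most 3 and was not tested.

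BNIP3 and BNIP3L encode related proteins of the outer mitochondrial membrane that recruit the autophagy machinery to mitochondria, and they differed from each other in these data. BNIP3 (chromosome 10, 131966455 to 131982013) measured 19.5 and 24.9 RPKM in the control libraries and 4.90 and 4.45 RPKM after TGF-β1, on 352, 622, 108 and 111 reads. Control replicate 2 was higher than control replicate 1 by a factor of 1.27, and both stood far above the TGF-β1 libraries. The means were 22.2 ± 3.8 and 4.67 ± 0.32 RPKM, a level 4.75-fold lower (log2 difference -2.12, 95% confidence interval -2.49 to -1.75), and 8 tested genes had a lower difference. BNIP3L (chromosome 8, 26382898 to 26505636), also called NIX, measured 10.2 and 12.4 RPKM in the control libraries and 8.30 and 10.2 RPKM after TGF-β1, on 148, 250, 148 and 206 reads. Here the groups overlapped, since TGF-β1 replicate 2 stood slightly above control replicate 1, and the log2 difference was -0.27 (95% confidence interval -0.66 to 0.11). Within a library BNIP3 stood at 1.92 and 2.01 times the level of BNIP3L in controls and at 0.591 and 0.437 times with TGF-β1. By RPKM, BNIP3 was thus above BNIP3L in both controls and below it in both TGF-β1 libraries. RPKM divides by the merged annotated exons, 5325 bases for BNIP3 and 4307 for BNIP3L. The order of the pair within a library depends on these lengths, so it need not be that of the transcripts. The fall of the ratio with TGF-β1 does not depend on them.

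BNIP3 has processed copies in the genome, and 9.92% of its 50-base transcript words also occur in other annotated transcripts, BNIP3P1 among them. That pseudogene had 4, 3, 1 and 1 reads, BNIP3P5 had 0 and BNIP3P15 at most 2, so few reads were assigned to copies. The antisense genes ENSG00000277959 and ENSG00000273521 overlap BNIP3 and had 10, 10, 11 and 7 reads and 1, 0, 0 and 0 reads in the same order of libraries. PNMA2 and SDAD1P1 overlap BNIP3L on the other strand and had 39, 58, 31 and 32 reads and 7, 8, 12 and 7 reads. The share of 50-base words found in other genes was 3.27% for HIF1A and 1.46% for EGLN1, and HIF1AP1, a copy of HIF1A, had 0 reads.

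Other mitophagy genes moved in both directions. Of 14 tested besides BNIP3 and BNIP3L, 4 were called higher and 1 lower, or 35.7% beside 9.12% of all tested genes. The median log2 difference was 0.01, near the median of all tested genes (0.03). GABARAPL1, an ATG8-family protein that BNIP3-type receptors bind, rose from 19.3 ± 3.7 to 45.2 ± 1.1 RPKM (log2 difference 1.22, adjusted p = 0.0107, limma). MAP1LC3B, the LC3B protein of the same family, rose from 21.3 ± 2.2 to 31.2 ± 1.2 RPKM (0.54, adjusted p = 0.0336), and PINK1, the kinase that starts ubiquitin-dependent mitophagy, from 17.2 ± 0.19 to 25.0 ± 0.23 RPKM (0.53, adjusted p = 0.0177). FKBP8, another mitochondrial receptor, rose by 0.35 on the log2 scale (adjusted p = 0.0471, limma). The FKBP8 call was lost under 10 of 15 alternatives, among them the omission of any library (0.27 to 0.42) and quantile normalisation (0.10). The MAP1LC3B call was lost under 7 of 15 alternatives, among them scaling by total recovered reads (0.36) and the omission of control replicate 1 (0.44) or TGF-β1 replicate 1 (0.58) or 2 (0.50). The PINK1 call was lost without TGF-β1 replicate 1 (0.54) or 2 (0.52) and without the variance trend. SQSTM1, the ubiquitin-binding receptor p62, fell from 117 ± 4.8 to 75.9 ± 0.33 RPKM (-0.62, adjusted p = 0.00793, limma). The calls for GABARAPL1 and SQSTM1 were lost only without the variance trend. The remaining 9 genes lay between -0.24 and 0.14.

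**Figure D3:**
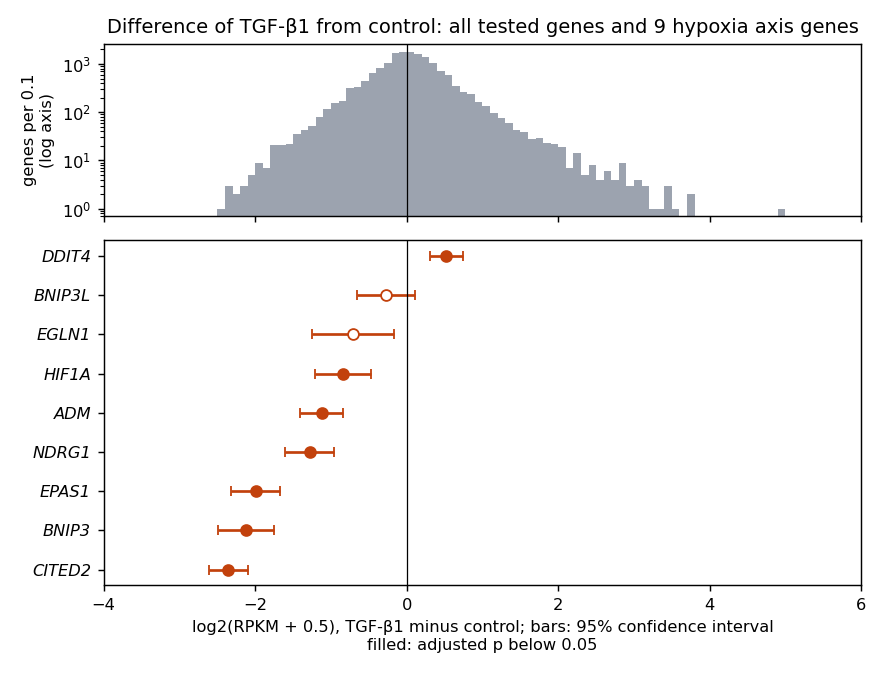
Log2 difference of TGF-β1 from control for all 16590 tested genes (upper panel, number of genes per 0.1 on a log axis) and for 9 of the genes described (lower panel). Points are limma estimates on log2(RPKM + 0.5), bars are 95% confidence intervals, and filled points have an adjusted p below 0.05. CITED2, BNIP3 and EPAS1 lie near -2 in the lower tail, and BNIP3L has an interval across 0.

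ADM and NDRG1 were both lower with TGF-β1. ADM (chromosome 11, 10304680 to 10307397) encodes adrenomedullin, a vasodilator peptide that is a strong hypoxia target. It measured 14.4 and 13.3 RPKM in the control libraries and 5.71 and 6.45 RPKM after TGF-β1, on 132, 169, 64 and 82 reads. The groups were well apart, 13.8 ± 0.78 against 6.08 ± 0.52 RPKM, a level 2.27-fold lower (log2 difference -1.12, 95% confidence interval -1.41 to -0.84). The peptide's receptor CALCRL had 0, 2, 0 and 0 reads. Its partner proteins RAMP1 (1, 1, 7 and 4 reads) and RAMP2 (10, 19, 7 and 20 reads) were measured on few reads and not called.

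NDRG1 (chromosome 8, 133237171 to 133302022), a cytoplasmic stress-response protein induced by hypoxia and by iron chelation, measured 10.2 and 9.22 RPKM in the control libraries and 3.49 and 3.90 RPKM after TGF-β1, on 338, 425, 142 and 180 reads. Both controls stood well above both TGF-β1 libraries. The means were 9.69 ± 0.67 and 3.70 ± 0.29 RPKM, a level 2.62-fold lower (log2 difference -1.28, 95% confidence interval -1.61 to -0.95). The 3 other NDRG genes had differences of -0.18 to 0.21 and none was called, although NDRG3 was measured on 130 to 246 reads a library.

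DDIT4 was the only gene of the set that was higher. It encodes REDD1, which restrains the growth kinase mTORC1 through the TSC complex, and it is induced by hypoxia and also by endoplasmic reticulum, amino acid and DNA damage stress. DDIT4 (chromosome 10, 72273920 to 72276036) measured 24.9 and 28.4 RPKM in the control libraries and 38.5 and 38.3 RPKM after TGF-β1, on 173, 274, 329 and 371 reads. The TGF-β1 libraries were nearly equal and lay above both controls. The level was 1.44-fold higher (log2 difference 0.52, 95% confidence interval 0.30 to 0.75). This call was the least stable of the set, and was lost under 6 of 15 alternatives. They included omitting control replicate 1 (log2 difference 0.43), TGF-β1 replicate 1 (0.52) or TGF-β1 replicate 2 (0.53), and scaling by total recovered reads (0.35).

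Of 8 other tested genes in the list of DDIT4, the TSC complex and mTORC1 control, 1 was called higher and 1 lower. The share called was 25%, beside 9.12% of all tested genes. SESN2, a stress-induced sestrin that senses leucine, rose from 27.6 ± 0.71 to 43.5 ± 0.23 RPKM (log2 difference 0.65, adjusted p = 0.00844, limma), a call lost only without the variance trend. TXNIP, a thioredoxin-binding protein that was placed in this list as a REDD1 partner, fell from 196 ± 2.9 to 163 ± 0.24 RPKM (-0.27, adjusted p = 0.0482, limma). The TXNIP call was lost whichever library was omitted (-0.28 to -0.25) and with the replicate number as a block. It was also lost without the variance trend and without the expression filter. The other 6, TSC1 and TSC2 among them, lay between -0.21 and 0.50 and were not called.

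Hypoxia targets outside the set moved in both directions. The list held 46 genes, of which 42 were tested: 7 rose, 5 fell and 30 were not called. The share called was 28.6%, beside 9.12% of all tested genes. The median log2 difference of the list was -0.01, beside 0.03 over all tested genes. ANGPTL4, a lipoprotein lipase inhibitor, rose 8.16-fold from 3.62 ± 0.34 to 29.6 ± 1.0 RPKM, and LOX, a collagen cross-linking oxidase, 11.1-fold from 0.787 ± 0.32 to 8.76 ± 0.52 RPKM. P4HA2, a collagen prolyl hydroxylase, rose 3.60-fold and BHLHE40, a transcriptional repressor, 2.87-fold. The log2 differences of these 4 were 2.87, 2.87, 1.75 and 1.49, their adjusted p-values 0.00111, 0.00453, 0.00317 and 0.00319 (limma), and they were called under all 15 alternatives. Also higher, and named here after their values were seen, were the angiogenic factor VEGFA (1.69-fold, from 5.18 ± 0.11 to 8.77 ± 0.41 RPKM, adjusted p = 0.0250, limma) and the glycolytic enzyme TPI1 (1.30-fold, adjusted p = 0.0413). The VEGFA call was lost whichever library was omitted (log2 differences 0.66 to 0.75) and without the variance trend. The TPI1 call was lost under 8 of 15 alternatives, the omission of any library (0.32 to 0.44) among them.

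The 5 called falls in this list had log2 differences of -1.35 to -0.48. The largest exceeded those of NDRG1 (-1.28), ADM (-1.12) and HIF1A (-0.84) and was smaller than those of CITED2, BNIP3 and EPAS1. ENO2, the neuronal enolase, fell from 32.7 ± 2.5 to 12.6 ± 2.2 RPKM (log2 difference -1.35) and AK4, a mitochondrial adenylate kinase, from 9.03 ± 0.79 to 4.06 ± 0.48 RPKM (-1.07). MXI1, a MYC antagonist, fell from 14.2 ± 0.70 to 7.37 ± 0.027 RPKM (-0.90), PFKFB3, an enzyme that stimulates glycolysis, from 40.5 ± 0.66 to 23.8 ± 0.79 RPKM (-0.75), and STC2, a secreted glycoprotein, from 24.2 ± 1.2 to 17.3 ± 0.40 RPKM (-0.48). Their adjusted p-values were 0.00838, 0.0165, 0.00939, 0.00651 and 0.0289 in this order (limma). All 5 calls were lost without the variance trend, that of AK4 also without TGF-β1 replicate 2 (-0.96), and that of STC2 also without control replicate 2 (-0.43), TGF-β1 replicate 1 (-0.45) or TGF-β1 replicate 2 (-0.50). The 30 genes that were not called lay between -0.84 and 0.59. Over all the lists except the 10 genes, 82 were tested, 14 were called higher and 7 lower, with a median of 0.05. The share called was 25.6%, beside 9.12% of all tested genes. The lists too were chosen with earlier results of these data known, so nothing is read from that share.

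**Figure D4:**
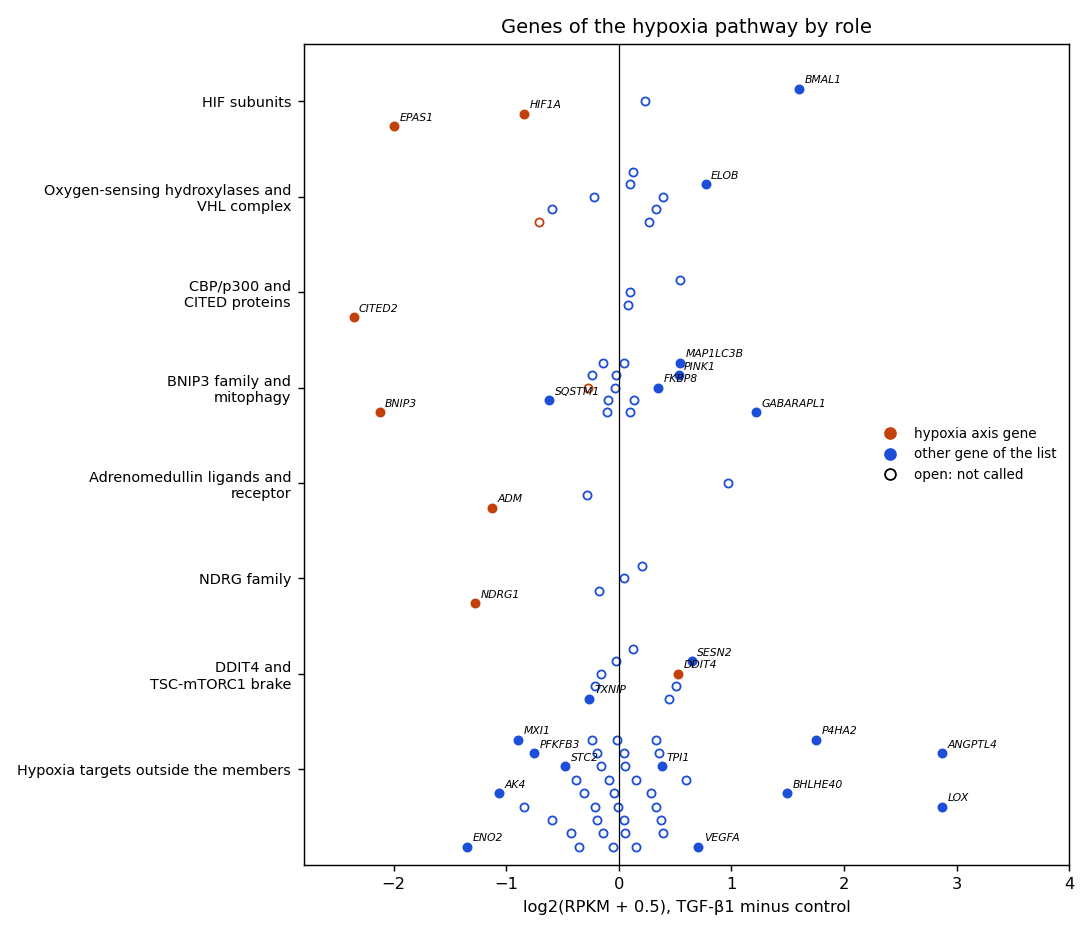
Log2 difference of TGF-β1 from control, on log2(RPKM + 0.5), for tested genes of 8 lists of the pathway. Orange points are the genes described in full, blue points the other genes of each list, filled and named points have an adjusted p below 0.05, and vertical spread within a list only separates the points. Among the named points of the lowest list, 6 lie to the right and 5 to the left.

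The genes whose pattern over the 4 libraries was most like that of CITED2 and of BNIP3 were sought by the Euclidean distance between centred log2(RPKM + 0.5) profiles, a description over 4 libraries with no test. Among the 5 nearest to CITED2 were ELF3 (distance 0.126), BNIP3 (0.249), KLHL13 (0.352) and SPNS2 (0.385), against a median distance of 2.42 over all tested genes. The 5 nearest to BNIP3 were KLHL13 (0.119), NPR1 (0.226), CITED2 (0.249), ELF3 (0.265) and the antisense gene ENSG00000230498 (0.269). CITED2 and BNIP3 were both listed with their low TGF-β1 levels known, and these levels weigh heavily in the distance, so nothing is read from their nearness. KLHL13, a ubiquitin ligase adaptor, went from 4.94 to 0.844 RPKM between group means. NPR1, a natriuretic peptide receptor, rested on 37, 79, 8 and 6 reads and ENSG00000230498 on 3, 5, 0 and 0, so few reads stand behind these profiles.

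All 9 tested genes kept the sign of their difference under the 15 alternative settings. CITED2 ranged from -2.55 to -2.25, BNIP3 from -2.30 to -1.95, EPAS1 from -2.16 to -1.84, NDRG1 from -1.44 to -1.19 and ADM from -1.29 to -1.04, and these 5 were called in every setting. With 2 samples a group, an exact permutation test of a single gene cannot give a two-sided p below 0.333, so every call rests on the spread that limma pools across genes.

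**Figure D5:**
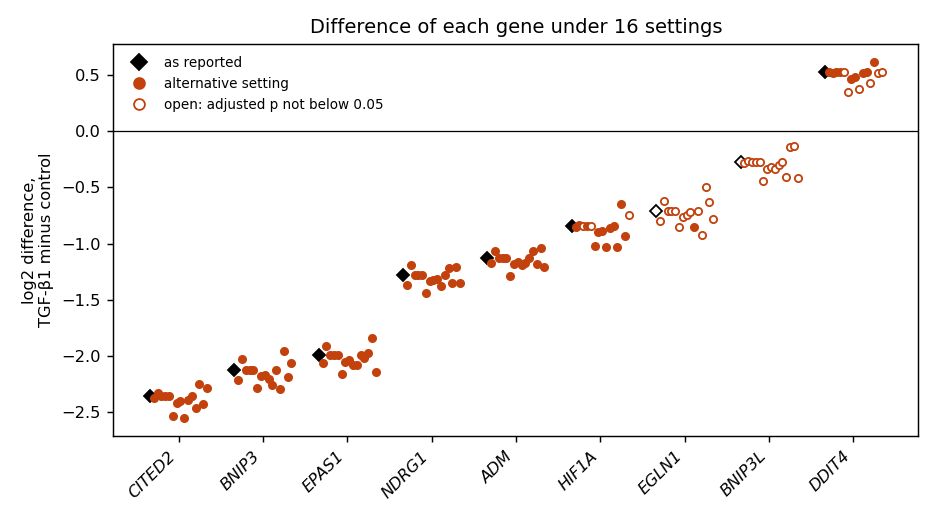
Log2 difference of TGF-β1 from control for 9 genes under 16 settings of the analysis. Black diamonds are the values as reported, orange circles the 15 alternatives, and open symbols have an adjusted p that is not below 0.05. CITED2, BNIP3, EPAS1, NDRG1 and ADM are filled throughout, and DDIT4 has 6 open symbols.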

How the data were processed

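Total RNA from 4 HK-2 libraries (2 control, 2 TGF-β1) was used. The deposited RPKM values cover 25609 genes. Per the submitters' processing notes, the tools named are STAR 2.7.1a, bcl2fastq 2.20.0.422 and DESeq2, with hg38 as the build, and no source used here gives the counting tool or its strand setting. No value was 0. Lengths were those of the merged exons of each gene in GENCODE 29. With them, every RPKM value of 23853 genes with the same identifier version equalled a whole read count plus an offset of 0.5 read (tolerance 0.01 read). Reads were thus recovered for 25503 genes (99.6%), 1297 of them with an inferred length.

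Differences were fitted with limma 3.58.1 (R 4.3.3), with a variance trend, on log2(RPKM + 0.5) for 16590 genes whose mean RPKM reached 0.5, and p-values were adjusted over all of them by the Benjamini-Hochberg method. The procedure was tested on simulated data with large changes in well-read genes and little spread between libraries. That simulation does not test the smaller differences called here. Symbols were matched for 25312 identifiers. The genes described and all lists were chosen with earlier results of these data known. Named genes were the 10 genes, all tested genes of the 3 lists of HIF subunits, hydroxylases and coactivators, called genes of other lists (at most 5 per direction), the 5 nearest profiles, and overlapping or copied genes; other list genes and cell type markers are named as examples. The 15 alternatives changed the pseudocount, filter, scaling, variance model, block or set of libraries. Of the genes that this rule selects, 2 are counted in the totals but not reported here by name.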

Additional observations from a re-analysis of the deposited data

How the results depend on the processing

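Over all genes, 1015 were called higher and 498 lower. The counts were 280 and 144 without the variance trend, 655 and 883 with total-read scaling, and 2009 and 1355 with limma's voom on the recovered reads; without the expression filter 297 were lower. Leaving out 1 library gave 395 to 842 higher and 179 to 297 lower. Of the 10 genes, DDIT4 was no longer called without the trend, with total-read scaling or after quantile normalisation, which left 0 called higher in limma (1 at an unadjusted p below 0.05 in each of these settings, and 1 called with voom), and leaving out 1 library gave 0 to 1 higher and 5 to 6 lower. Of the 82 other list genes, 14 were called higher and 7 lower, against 5 and 0 without the trend (limma; 19 and 9 at an unadjusted p below 0.05) and 23 and 13 with voom. Leaving out 1 library gave 8 to 12 higher and 4 to 7 lower. Where a single library is left in a group, it is assumed to vary like the other group. Total-read scaling replaced the library size implied by the RPKM values with the sum of recovered reads. The implied size was 1.02 and 0.979 times that sum in controls, and 0.896 and 0.864 times with TGF-β1. This setting therefore lowered the TGF-β1 libraries relative to controls. It turned the differences of HIF1AN to -0.046, VHL to -0.075, CREBBP to -0.094 and EP300 to -0.072, and quantile normalisation turned that of CREBBP to -0.012. The cause of the gap between the sizes and of the other changes was not tested.

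With the replicate number as a block, 947 genes were higher and 397 lower, and no call among the 10 genes changed. Deviations of same-numbered libraries correlated at 0.03 over 16590 genes, so no shared deviation was seen. This cannot tell whether same-numbered samples were prepared together, and the labels do not say. EGLN3, on 11 to 17 reads a library, was fitted only without the filter (-0.12, 95% confidence interval -0.63 to 0.39).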
